A study of Mus musculus with 48 samples.

Results

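E15 endocrine progenitors were set against E15 progenitors of the same pancreatic epithelium, with 3 arrays of each population, chosen by their titles, among 48 arrays in all. Both populations were sorted from E15 (E15.5 in the labels) pancreata of wild-type embryos on a CD-1 background that carried a Neurog3-eGFP reporter transgene, whose green protein can outlast Neurog3 itself. Both were gated as CD49f-low, CD133-positive and CD24-positive cells, and differed in the gate by green fluorescence: the endocrine progenitors were eGFP-positive, and the progenitors were eGFP-negative. Embryos were pooled for each array, so an array is a pool and not an animal. Unless another test is named, the p-values rest on a spread shared over the arrays of all 13 populations, and not on these pools alone. The labels do not say whether pools were made on separate days. The question was which genes change when a pancreatic progenitor commits to the endocrine lineage.

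In the developing pancreas, SOX9-positive epithelial cells give rise to duct, acinar and endocrine cells. A transient pulse of the transcription factor NEUROG3 commits single cells to the endocrine fate. Such cells express Notch ligands, and Notch signalling in their neighbours induces HES1, which represses Neurog3. Committed cells leave the cell cycle, move out of the epithelium and start to make hormones.

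Levels are given as log2 values of the robust multi-array average (RMA), and differences as endocrine progenitors minus progenitors on that log2 scale, with their standard error (SE). A probe or gene was called at an adjusted p under 0.05 in limma's fit (Benjamini-Hochberg) and a change of at least 2-fold. A value of 6.64 corresponds to 100 on the linear scale, the floor that the study's methods use, and where a population lies below it the size of a difference is not exact. Array medians lay between 6.69 and 6.75 in endocrine progenitors and between 6.65 and 6.68 in progenitors. Over probes, the correlation of arrays was 0.977 to 0.993 within endocrine progenitors, 0.98 to 0.992 within progenitors and 0.879 to 0.92 between them. The difference between the 3′ and the 5′ control probe of Gapdh (log2), a measure of RNA length, was 1.12 to 1.25 in endocrine progenitors, against 0.76 to 0.87 in progenitors. For the actin probes these ranges were 0.48 to 0.64 and 0.46 to 0.66, so that one control separated the populations and the other did not. The part of RNA length in the results was not tested.

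The markers of the sort bore out the labels, in the way that the gate fixes. Neurog3, the gene of the reporter, read 13.34, 13.41 and 13.44 in endocrine progenitors, against 11.64, 11.43 and 11.98 in progenitors. The arrays did not overlap, yet Neurog3 RNA was well above the floor in all 3 eGFP-negative pools. The difference was 1.72 (SE 0.37, adjusted p = 0.00029), and the other Neurog3 probe gave 2.70 (SE 0.28). As the reporter chose the cells, this difference is no finding. Prom1, which encodes CD133, was higher by 0.90, below the 2-fold threshold, Cd24a differed by 0.05 and Itga6, which encodes CD49f, by -0.69. The other Itga6 probe gave -1.03 (adjusted p = 0.041), which passes both thresholds.

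Sox9, the factor that marks and maintains the progenitor epithelium, read 11.39, 11.39 and 11.62 in endocrine progenitors, against 12.67, 12.59 and 12.43 in progenitors. It fell by 1.10 (SE 0.29, adjusted p = 0.0029), with no overlap, and by this probe stayed abundant in the endocrine progenitors. The other Sox9 probe that passed the filter fell by 1.99 (SE 0.43). That probe read 5.68, 5.76 and 6.62 in endocrine progenitors, all below the floor, against 7.65, 7.39 and 8.99 in progenitors. Neurod1, a basic helix-loop-helix factor that acts just after NEUROG3, read 12.93, 13.07 and 12.93 in endocrine progenitors, against 6.34, 7.98 and 6.90 in progenitors. It rose by 5.90 (SE 0.32, adjusted p = 3.6e-18). The populations were far apart, and progenitor replicate 2 held more of it than the other 2 progenitor arrays.

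**Figure D1:**
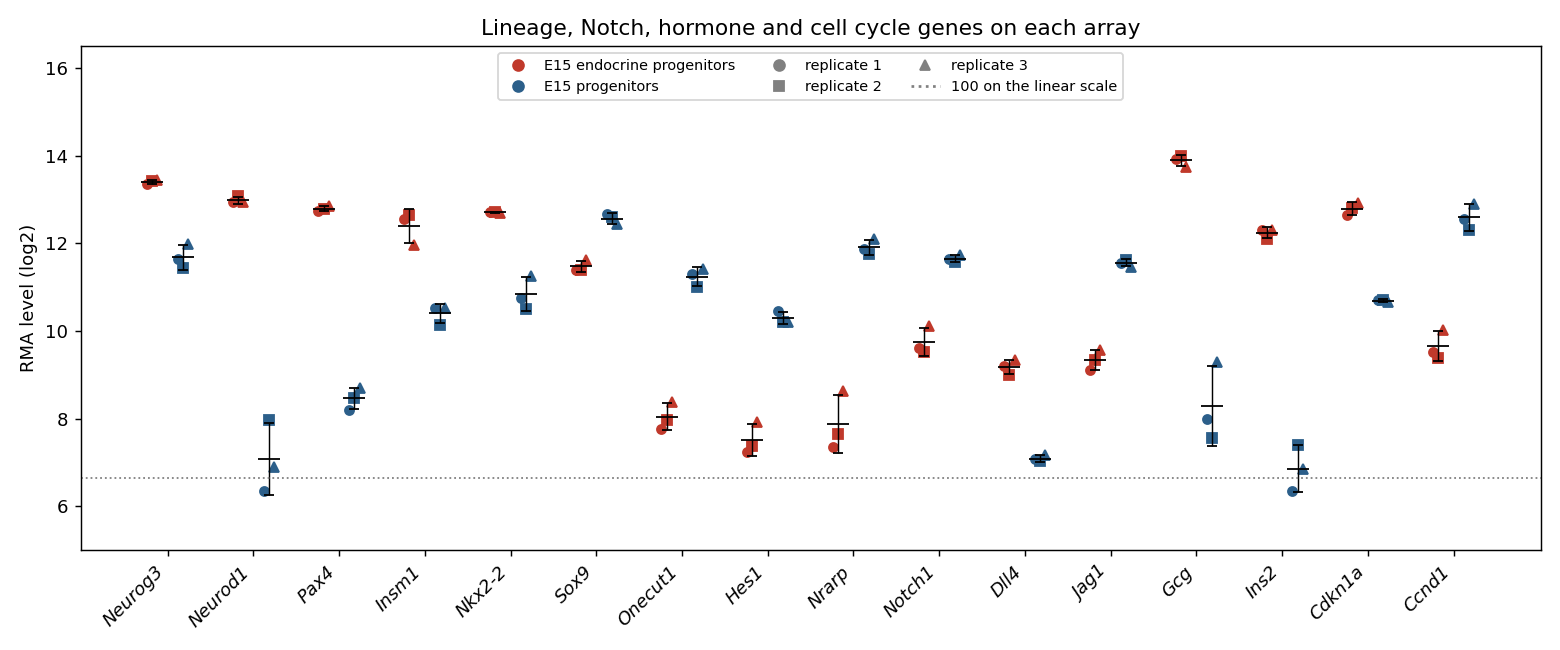
RMA level (log2) of 16 genes on each of the 3 endocrine progenitor arrays (red) and the 3 progenitor arrays (blue); symbols mark the replicate, bars the mean and SD, and the dotted line 100 on the linear scale. None of the 16 genes overlaps between the populations, and Neurod1 spans 12.93 to 13.07 in endocrine progenitors against 6.34 to 7.98 in progenitors.

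Across the transcriptome, 2907 of 32043 probes (9.07%) were higher in endocrine progenitors and 3249 (10.1%) were lower. By gene, 1545 of 14484 (10.7%) were higher and 1699 (11.7%) were lower. The median difference over all genes was -0.03. The 2 directions were alike in number and unlike in size, for 143 genes rose by at least 4 on the log2 scale and 3 fell by as much. Of the genes that rose, 634 (41.0%) lay at or under the floor on all 3 progenitor arrays. Of the genes that fell, 361 (21.2%) lay at or under it on all 3 endocrine progenitor arrays. In bulk pools such as these, fewer cells of a kind and less RNA per cell cannot be told apart.

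**Figure D2:**
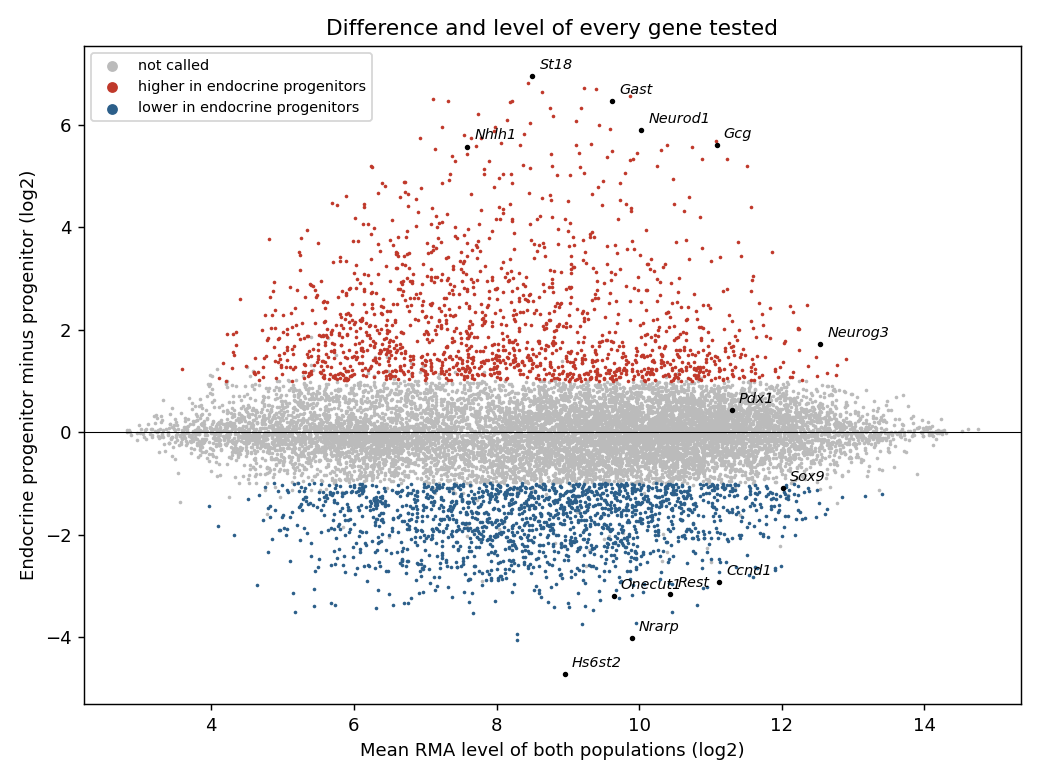
Difference (endocrine progenitor minus progenitor, log2) against the mean level of both populations (log2) for 14484 genes; red points were called higher, blue points lower and grey points were not called. Increases reach 6.96 (St18) and decreases -4.73 (Hs6st2).

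The largest increase was that of St18. The gene, which encodes a zinc finger factor of the Myt1 family, read 12.03, 12.24 and 11.67 in endocrine progenitors, against 3.89, 6.34 and 4.83 in progenitors. Every progenitor pool lay below the floor and every endocrine progenitor pool well above it, a difference of 6.96 (SE 0.45, adjusted p = 5.8e-16). The next were Resp18 (6.83), an endocrine protein of the secretory pathway, Rimbp2 (6.73), a scaffold of presynaptic release sites, Sphkap (6.70), an anchor of protein kinase A, and Gjd2 (6.65), the gap junction protein connexin 36 of beta cells and neurons. Slc38a5 (6.56), a glutamine transporter, Slc35d3 (6.51), a transporter of the secretory pathway, Gast (6.47), the hormone gastrin, Kcnma1 (6.47), a calcium-activated potassium channel, and Hpca (6.46), a neuronal calcium sensor, followed. The other 5 of the 15 largest were Gng4 (6.45), a G protein subunit, Lhx1 (6.34) and Pax6 (6.34), homeodomain factors, Slc7a14 (6.21), a lysosomal amino acid transporter, and 1700086L19Rik (6.18), of no known role. All 15 were called with each array left out in turn and under the other alternatives tried.

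The largest decrease was that of Hs6st2. This gene, whose product sulfates heparan chains, read 5.94, 6.19 and 7.65 in endocrine progenitors, against 11.17, 11.19 and 11.59 in progenitors, a difference of -4.73 (SE 0.41, adjusted p = 2.7e-12). Endocrine progenitor replicate 3 held the most of it, and still lay far below every progenitor array. Cnmd, the matrix glycoprotein chondromodulin, fell by 4.06, and Nrarp, a feedback inhibitor that Notch induces, fell by 4.03. Acan (-3.51) encodes the proteoglycan aggrecan, Gjb2 (-3.48) connexin 26, Car9 (-3.42) a carbonic anhydrase, Slc16a1 (-3.42) a lactate transporter, Hpgd (-3.72) a prostaglandin-degrading enzyme and Dctd (-3.54) an enzyme of thymidine nucleotide synthesis. Ripor2 (-3.95), an inhibitor of RhoA, Serpina3a (-3.43), a serine protease inhibitor, and BC006965, BC016579, Gm36529 and Gm8096 (-3.75 to -3.39), which have no role to give here, completed the 15.

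Transcription factors of endocrine commitment rose as a group. Of 23 members tested, 18 (78.3%) were higher and none was lower, with a median difference of 3.66, beside 10.7% and -0.03 over all genes. The 18 include Neurog3, whose reporter chose the cells and whose difference is therefore no finding. Pax6 read 12.49, 12.37 and 12.20 in endocrine progenitors, against 5.28, 6.95 and 5.83 in progenitors. Neurod2, a relative of Neurod1, rose by 5.92 (SE 0.53), Pou3f4 by 5.82 (SE 0.28), Irx2 by 5.75 (SE 0.45) and Isl1, a LIM homeodomain factor of islet cells, by 5.58 (SE 0.46). Nhlh1, a helix-loop-helix factor of newborn neurons, rose by 5.58 (SE 0.27). Myt1, a zinc finger factor downstream of NEUROG3, rose by 4.40 (SE 0.28), and Runx1t1, a transcriptional corepressor, by 4.20 (SE 0.41). Pax4, which favours the beta and delta fates, read 12.74, 12.77 and 12.85 in endocrine progenitors, against 8.20, 8.48 and 8.71 in progenitors, a difference of 4.32 (SE 0.23, adjusted p = 2.6e-18).

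A smaller set of these factors was already abundant in the eGFP-negative pools. Insm1, a zinc finger factor of endocrine differentiation, read 12.56, 12.65 and 11.96 in endocrine progenitors, against 10.52, 10.14 and 10.53 in progenitors. Nkx2-2, a homeodomain factor of the islet lineage, read 12.71, 12.71 and 12.70 in endocrine progenitors, against 10.75, 10.50 and 11.26 in progenitors. Their increases of 1.99 (SE 0.28) and 1.87 (SE 0.34) stand beside 1.72 for Neurog3 and 1.24 for Rfx3, a ciliary factor of islet cells, which was at 0.99 and not called with the mean over its probes. These 4 read above 10 on every progenitor array, where Neurod1, Pax6, Neurod2 and St18 read 7.98 or less. Of the 5 members not called, Sox4 differed by 0.99 (adjusted p = 0.014), Snai2 by 0.67, Sox11 by 0.62, Prdm16 by 0.28 and Bcl11a by 0.14.

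The stretch of 250 bases before the start of these genes is shown for those that carry the E-box CAGATG, a form of the motif that NEUROG3 and NEUROD1 bind, because these factors rise together with both. The sequences are from RefSeq (GRCm38.p6), 5′ to 3′ on the strand of the gene, with the E-box, read on either strand as CAGATG or CATCTG, in capitals. Nkx2-2 lies on the minus strand at chr2:147186403-147186652, Neurod2 on the minus strand at chr11:98329646-98329895, Nhlh1 on the minus strand at chr1:172057597-172057846 and Irx2 on the plus strand at chr13:72628570-72628819.
Nkx2-2: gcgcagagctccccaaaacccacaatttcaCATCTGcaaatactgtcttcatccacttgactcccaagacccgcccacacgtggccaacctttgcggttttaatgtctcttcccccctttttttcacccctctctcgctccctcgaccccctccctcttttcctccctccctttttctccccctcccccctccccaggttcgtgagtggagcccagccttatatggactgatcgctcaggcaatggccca
Neurod2: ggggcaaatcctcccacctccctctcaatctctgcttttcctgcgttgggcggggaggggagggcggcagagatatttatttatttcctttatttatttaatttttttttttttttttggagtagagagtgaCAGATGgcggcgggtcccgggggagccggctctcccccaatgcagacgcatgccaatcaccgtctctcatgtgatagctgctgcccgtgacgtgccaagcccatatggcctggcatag
Nhlh1: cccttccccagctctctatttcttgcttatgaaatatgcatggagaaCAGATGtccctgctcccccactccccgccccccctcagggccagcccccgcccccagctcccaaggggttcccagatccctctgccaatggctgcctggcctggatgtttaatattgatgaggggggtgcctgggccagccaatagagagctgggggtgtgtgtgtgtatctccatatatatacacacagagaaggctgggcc
Irx2: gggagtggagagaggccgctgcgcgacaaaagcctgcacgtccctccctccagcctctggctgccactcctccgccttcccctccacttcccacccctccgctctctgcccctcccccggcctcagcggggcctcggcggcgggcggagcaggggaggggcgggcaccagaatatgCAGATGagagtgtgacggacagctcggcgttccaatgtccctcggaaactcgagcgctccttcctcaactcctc
The motif starts 220 bases before the start of Nkx2-2, 118 before that of Neurod2, 203 before that of Nhlh1 and 74 before that of Irx2. Of the 18 factors that rose, 13 had a promoter in the table, and these 4 held the motif. The share was 14.4% of all 32851 promoters of the table and 12.7% of the 11629 tested genes that had one. By gene it was 16.3% of all 27025 genes of the table, 16.3% of the genes that rose, 13.6% of those that fell and 12.1% of those not called. A match is a run of letters and not a site of binding, and the 4 were printed because they matched.

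Of 27 factors of the progenitor epithelium, 10 were lower (37.0%) and 3 higher (11.1%), beside 11.7% and 10.7% over all genes, with a median of -0.41. Onecut1, which acts upstream of Neurog3, averaged 8.04 ± 0.31 in endocrine progenitors and 11.24 ± 0.22 in progenitors (SD, n = 3 each), a difference of -3.20 (SE 0.30, adjusted p = 2.4e-11). Ehf, an epithelial Ets factor, fell by 2.87, Myc by 2.84, Mycn by 2.41, Yap1 by 2.33 and Id3, an inhibitor of helix-loop-helix factors, by 2.20. Id1 and Id2 fell by 1.64 and 1.52, and Gata4 by 1.79. Onecut2 rose by 2.82, and the forkhead factors Foxa3 and Foxa2 by 1.56 and 1.27. The methods' test (each probe on its own over these 6 arrays, with no spread shared between probes) did not call Gata4 (adjusted p = 0.11) or Foxa3 (adjusted p = 0.055). Pdx1, needed for the formation of the pancreas, read 11.62, 11.45 and 11.46 in endocrine progenitors, against 11.02, 10.98 and 11.22 in progenitors, and was not called (difference 0.43, adjusted p = 0.11). Nkx6-1, a factor of progenitors and beta cells, differed by 0.73, Hnf4a by 0.85 and Glis3 by -0.41, each short of 2-fold.

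Rest, a repressor of neuronal genes outside neurons, was read after its values were seen. It was at 8.47, 8.80 and 9.29 in endocrine progenitors, against 12.04, 11.82 and 12.20 in progenitors. It fell by 3.16 (SE 0.49, adjusted p = 1.9e-06), and the other 2 of its probes that passed the filter fell by 2.80 each.

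Among Notch ligands and their modulators, 5 of 13 rose, 1 fell and 7 were not called (median 0.45). Over all genes 10.7% rose and 11.7% fell. Dll4 read 9.21, 9.00 and 9.33 in endocrine progenitors, against 7.07, 7.04 and 7.17 in progenitors (2.09, SE 0.17), and Dll3 rose by 2.69 (SE 0.23). Mfng, a glycosyltransferase that modifies Notch receptors, rose by 3.64, Numbl, a relative of the Notch inhibitor Numb, by 2.33, and Dner, a transmembrane protein with Delta-like repeats, by 5.45. Of the other ligands, Dll1 read 8.80, 8.18 and 8.55 in endocrine progenitors, against 8.72, 8.51 and 8.96 in progenitors, with overlapping arrays, and was not called (-0.22, adjusted p = 0.69). Jag2 differed by 0.45 and was not called. Jag1, a ligand of the pancreatic epithelium, was the 1 member that fell. It read 9.12, 9.34 and 9.56 in endocrine progenitors, against 11.56, 11.62 and 11.46 in progenitors, a difference of -2.20 (SE 0.25, adjusted p = 1.7e-09).

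All 4 receptors were lower in endocrine progenitors. Notch1 read 9.61, 9.52 and 10.12 there, against 11.64, 11.57 and 11.73 in progenitors, a difference of -1.90 (SE 0.19, adjusted p = 1.2e-10). Notch3 fell by 1.88, Notch4 by 1.73 and Notch2 by 1.55. With the mean over all probes of a gene, Notch2 was at -0.97 and not called. Rbpj, the DNA-binding partner of the cleaved receptor, rose by 1.06, and without endocrine progenitor replicate 3 was at 0.98 and not called. Among the receptors and their partners these made 4 of 8 lower and 1 higher (median -0.72), beside 11.7% and 10.7% over all genes.

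Of 8 Notch targets, 4 fell and 1 rose (median -1.31, beside 11.7% lower over all genes). Nrarp read 7.35, 7.66 and 8.62 in endocrine progenitors, against 11.86, 11.76 and 12.09 in progenitors. Hes1, the repressor of Neurog3, read 7.24, 7.37 and 7.92 in endocrine progenitors, against 10.45, 10.21 and 10.20 in progenitors, a difference of -2.78 (SE 0.26, adjusted p = 3.6e-11). Both were far apart between the populations. Heyl fell by 1.98 and Hey2 by 1.92, with Hey2 below the floor on all 6 arrays. Hes6, which antagonises HES1 and is itself induced by proneural factors, rose by 1.32 (SE 0.14). The motif GTGGGAA of the partner protein RBPJ, read on both strands, stood in the 250 bases before the start in 3 of the 5 targets with a promoter in the table (Hes5, Hes7 and Hey2) and in 5.42% of all promoters (6.52% of the tested genes), and these 3 genes lay below the floor on all 6 arrays.

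**Figure D3:**
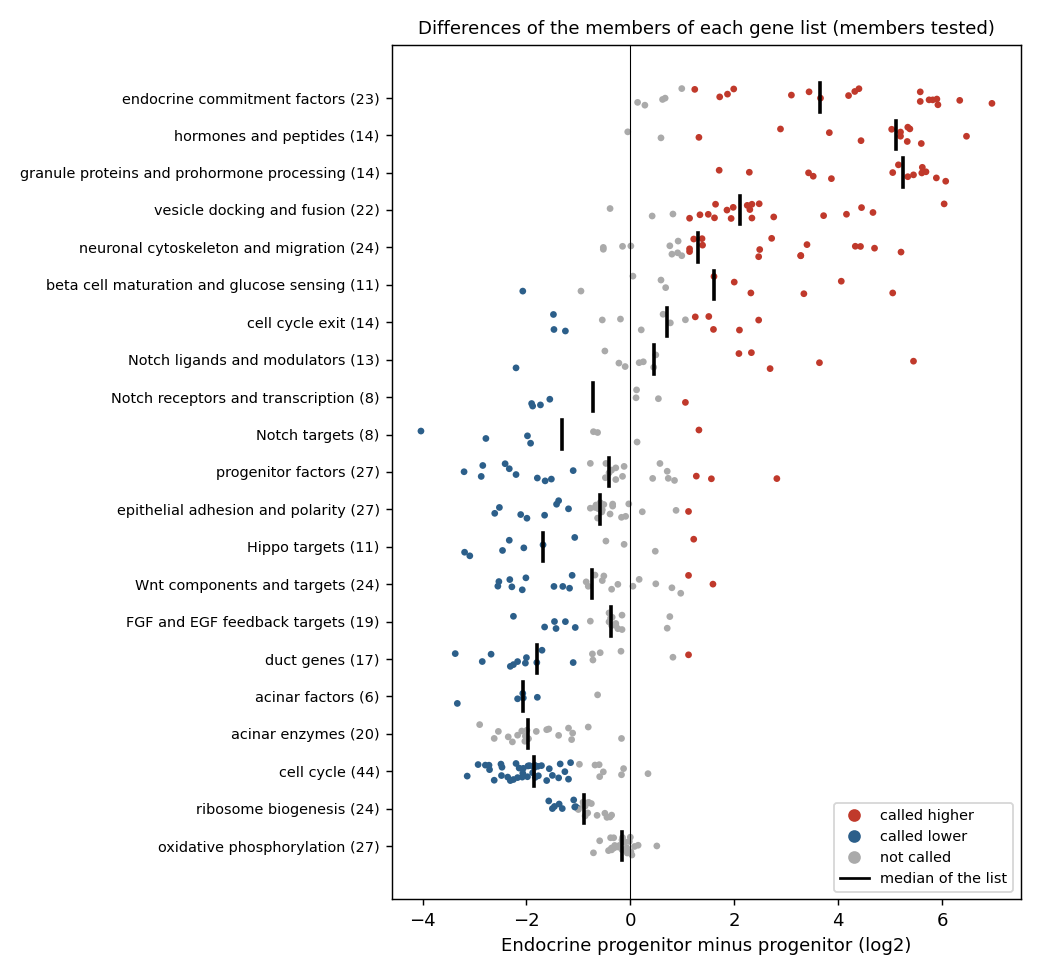
Difference (endocrine progenitor minus progenitor, log2) of each member of 21 gene lists, with the number tested in brackets; red was called higher, blue lower and grey not called, and black bars are medians. Medians run from 5.25 for granule proteins to -2.06 for acinar factors.

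Hormones and peptides rose in 12 of 14 members (85.7%, beside 10.7% over all genes), with a median of 5.11. Gcg, glucagon, read 13.93, 13.99 and 13.74 in endocrine progenitors, against 7.99, 7.56 and 9.30 in progenitors, a difference of 5.60 (SE 0.67, adjusted p = 7.6e-09). Ghrl, ghrelin, read 13.85, 13.92 and 13.92 in endocrine progenitors, against 7.44, 10.18 and 8.06 in progenitors (5.34, SE 0.61). Ins2, insulin, read 12.31, 12.09 and 12.31 in endocrine progenitors, against 6.34, 7.40 and 6.85 in progenitors (5.38, SE 0.43). The most abundant hormone RNAs can saturate array probes, so that the size of these differences and the spread within endocrine progenitors are not exact. Among progenitors replicate 2 held the most Ghrl and Ins2 and replicate 3 the most Gcg. Gast rose by 6.47, the amylin gene Iapp by 5.33, Pyy and Cck by 5.20 each, Ppy, pancreatic polypeptide, by 5.03 and Sst, somatostatin, by 2.89. Tph1, of serotonin synthesis, rose by 1.32 below the floor. Its relative Tph2 (-0.05) and Ucn3 (0.59), the second a peptide of mature beta cells, lay below the floor on all 6 arrays. The gate aimed at cells without hormone, and how much of this RNA came from hormone-positive descendants that kept eGFP was not tested.

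All 14 genes of secretory granules and prohormone processing rose, by 1.71 to 6.07. Chga, chromogranin A, read 13.26, 13.23 and 13.11 in endocrine progenitors, against 6.95, 8.35 and 7.47 in progenitors (5.61, SE 0.27). Scgn, the calcium sensor secretagogin, rose by 6.07, the granins Scg2, Chgb and Scg3 by 5.89, 5.69 and 5.62, and Ptprn2, a receptor-like protein of the granule membrane, by 5.45. On the progenitor side these genes were near the floor, 4 of 14 lying above it in replicate 1, 8 in replicate 2 and 5 in replicate 3. Of 22 genes for vesicle docking and fusion, 19 rose (86.4%, median 2.12), beside 10.7% over all genes. Cadps, which primes dense-core vesicles, rose by 6.04, Snap25 of the fusion complex by 4.67, the calcium sensors Syt7 and Syt13 by 4.45 and 3.72, Syp, synaptophysin, by 4.16 and Doc2b by 2.76. Syt13 and Rph3al, a RAB effector, already read above 9 on every progenitor array.

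Of 11 genes of mature beta cells, 6 rose (54.5%) and 1 fell (9.09%), beside 10.7% and 11.7% over all genes. Slc30a8, the zinc transporter of insulin granules, rose by 5.05, G6pc2 by 4.06, and Abcc8 and Kcnj11, the subunits of the ATP-sensitive potassium channel, by 3.34 and 2.32. Gipr, a receptor for an incretin, rose by 2.00 and Ero1b, an oxidase of the endoplasmic reticulum, by 1.61 (0.84 and not called with the mean over its probes). Slc2a2, the glucose transporter GLUT2, read 9.12, 9.16 and 9.66 in endocrine progenitors, against 11.39, 11.13 and 11.62 in progenitors, a difference of -2.07 (SE 0.27, adjusted p = 3.9e-08). Of 24 genes that newborn neurons share with islet cells, 15 rose (62.5%, median 1.30). The RNA-binding proteins Celf3 and Elavl4 rose by 5.21 and 4.33, the neurofilament gene Nefm by 4.70, Tubb3, a neuronal tubulin, by 4.43, Map1b, a microtubule protein, by 3.40, and Pak3, a kinase of the cytoskeleton, by 3.28.

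Proliferation genes fell in near unison. Of 44, 36 were lower (81.8%, beside 11.7% over all genes) and the median was -1.86. Mki67, the proliferation antigen Ki-67, read 10.25, 10.67 and 11.21 in endocrine progenitors, against 12.64, 12.67 and 12.73 in progenitors (-1.97, SE 0.35). Cdc6, which loads the replicative helicase, fell by 3.14 (SE 0.31), Ccnd1, cyclin D1, by 2.93 (SE 0.20), and the mitotic motor Kif11 by 2.79. The mitotic kinase genes Aurkb (-2.72), Bub1 (-2.71) and Bub1b (-2.62) fell likewise. None of these overlapped between the populations, and endocrine progenitor replicate 3 read highest of its group for each. By the probe chosen for each gene, the other D cyclins moved less, Ccnd2 by -0.98 and Ccnd3 by -0.52. Yet 6 of the 7 Ccnd2 probes were called lower, the chosen one being the exception.

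Genes of cell cycle exit were mixed, 5 of 14 being higher (35.7%) and 3 lower (21.4%), beside 10.7% and 11.7% over all genes. Cdkn1a, the inhibitor p21, read 12.64, 12.81 and 12.92 in endocrine progenitors, against 10.71, 10.71 and 10.66 in progenitors (2.10, SE 0.19, adjusted p = 8.9e-12). Gadd45a, a stress-induced growth arrest gene, rose by 2.47, Gadd45g by 1.51 and Cdkn2b, the inhibitor p15, by 1.60. Rb1, the retinoblastoma gene, rose by 1.25. Rbl1, its relative p107, fell by 1.48, Cdkn2c by 1.47 and Gadd45b by 1.25. Cdkn1c, the inhibitor p57, differed by -0.54 and was not called.

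Ribosome biogenesis genes were lower in value in all 24 cases, and 9 passed the 2-fold threshold (37.5%, beside 11.7% lower over all genes). Nhp2 and Dkc1, of the same class of nucleolar particle, fell by 1.57 and 1.46, Utp20 by 1.37 and Rpp40, of ribonuclease P, by 1.31. Polr1b, a subunit of RNA polymerase I, fell too, at 6.59 ± 0.60 in endocrine progenitors and 8.09 ± 0.25 in progenitors (SD, n = 3 each). With no minimum fold, all 24 passed. Of 27 subunits of the respiratory chain and ATP synthase, none was called by limma or by the methods' test at 2-fold, and 9 had an unadjusted p under 0.05, with differences from -0.71 to 0.51. With no minimum fold, limma called 6 of these subunits lower and 1 higher. Of 22 chaperones and genes of the unfolded protein response, Edem1, an aid to the disposal of misfolded proteins, fell by 1.79 and was the 1 call, which the methods' test did not make (adjusted p = 0.059).

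Of 11 Hippo pathway genes, 7 fell (63.6%) and 1 rose (median -1.68), beside 11.7% lower and 10.7% higher over all genes. Ccn2, the YAP target connective tissue growth factor, read 7.66, 8.06 and 9.19 in endocrine progenitors, against 11.57, 11.21 and 11.69 in progenitors (-3.19, SE 0.38). Ankrd1 fell by 3.09, Ajuba by 2.46 and Wwtr1, which encodes TAZ, by 1.68 (not called by the methods' test). Ccn1, another YAP target, fell by 2.05 (adjusted p = 0.032), a call that was lost when any array but endocrine progenitor replicate 3 was left out (-2.15 to -1.85, adjusted p up to 0.11). Amotl2, an angiomotin that binds YAP, rose by 1.22 (SE 0.23). Of 24 genes of Wnt signalling, ligands and receptors among them, 10 fell (41.7%) and 2 rose (median -0.74). The receptors Fzd7, Fzd5 and Fzd1 fell by 2.53, 2.28 and 2.08, the feedback ubiquitin ligase Rnf43 by 2.55, the ligand Wnt7b by 2.32 and the repressor Tcf7l1 by 2.01. Sfrp2, a secreted Wnt antagonist, rose by 1.59 (not called by the methods' test) and Wnt4 by 1.12, while Axin2, a common readout of the pathway, differed by 0.05.

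Of 19 genes of FGF and EGF signalling, 6 were lower (31.6%) and none was higher (median -0.38), beside 11.7% and 10.7% over all genes. Fgfr2, the receptor through which mesenchymal FGF10 acts, read 11.40, 11.51 and 11.46 in endocrine progenitors, against 12.77, 12.50 and 12.84 in progenitors (-1.25, SE 0.31). The feedback inhibitor Spry1 fell by 2.25 (not called by the methods' test), and the EGF receptor family members Erbb3 and Erbb2 by 1.46 and 1.43. Egfr fell by 1.65 with the probe chosen over all 48 arrays, and was at -0.27 and not called with the probe brightest on these 6 arrays. Phlda1 fell by 1.06, and was at -0.93, -0.94 and -0.98 and not called without endocrine progenitor replicate 1, endocrine progenitor replicate 2 and progenitor replicate 2.

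Genes of epithelial adhesion and polarity were lower in 8 of 27 cases and higher in 1, beside 11.7% and 10.7% over all genes. The median was -0.59. The integrin subunits Itgb6 and Itgb4 fell by 2.61 and 2.52, the junction proteins Tjp3, Cldn3 and Cgn by 2.11, 1.99 and 1.65, and the polarity gene Pard6b by 1.42. Krt7, a keratin of duct epithelium, read 13.32, 13.31 and 13.33 in endocrine progenitors, against 12.22, 11.95 and 12.42 in progenitors, and rose by 1.12 (SE 0.16). Cdh1, E-cadherin, differed by -0.55 (SE 0.13) and Epcam by -0.51 (SE 0.18), each short of 2-fold.

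Of 15 genes linked to leaving an epithelium, 3 rose and 3 fell (20.0% each, beside 10.7% and 11.7% over all genes). Zeb1, a repressor of E-cadherin, rose by 3.00 (SE 0.27), Cdh2, N-cadherin, by 2.29 and Zeb2, a relative of Zeb1, by 1.45. The chemokine Cxcl12 and its receptor Cxcr4 fell by 1.95 and 2.58, and the mesenchymal factor Twist1 by 1.06. Zeb2 was not called without endocrine progenitor replicates 2 or 3 or progenitor replicates 1 or 3 (1.28 to 1.39), nor with the mean over its probes (0.30). Twist1 was not called without endocrine progenitor replicates 1 or 3 (-1.04 and -1.03) or progenitor replicate 3 (-0.89). Mesenchymal markers were read beside these genes. Of 13 markers of mesenchyme and stellate cells, 7 were higher (53.8%, median 1.18), with summed linear levels of 7591 to 11223 in endocrine progenitors, against 1211 to 4315 in progenitors. Col1a1, a fibrillar collagen, read 11.57, 11.86 and 11.86 in endocrine progenitors, against 7.26, 10.47 and 7.72 in progenitors (3.29, SE 0.60), and progenitor replicate 2 was the one closest to the endocrine progenitors. Col1a2 rose by 3.23, Col3a1 by 3.09, Dcn, decorin, by 2.28, Col6a1 by 1.62 and Pdgfra, a receptor of mesenchymal cells, by 1.35. Without endocrine progenitor replicate 3, Col6a1 was at 1.22 and Pdgfra at 0.95, and neither was called. Col6a1 was also lost without progenitor replicate 1 (1.28). Lum rose by 1.18 below the floor. Pdgfrb differed by -0.09, and Tcf21 lay below the floor on all 6 arrays. With the methods' test 1 of the 13 was called. The part of mesenchymal RNA in the results was not tested.

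Of 6 acinar factors, 5 fell (median -2.06, beside 11.7% lower over all genes), while none of the 20 acinar enzymes passed the test. Ptf1a, which drives the acinar fate, read 6.26, 6.81 and 8.95 in endocrine progenitors, against 11.01, 11.63 and 9.37 in progenitors, a difference of -3.33 (SE 0.53, adjusted p = 2.3e-06). Endocrine progenitor replicate 3 and progenitor replicate 3 came close to each other. Rbpjl, its partner, fell by 2.17 with overlapping arrays, Nr5a2 by 2.07 and Bhlha15 by 2.06. With the methods' test 1 of the 6 was called. All 20 digestive enzymes and secreted products were lower in value (median -1.97), and none was called by limma over the 48 arrays or by the methods' test, with 4 at an unadjusted p under 0.05. With the 6 arrays alone limma called 7 of them lower, and with array weights 19. Their summed linear level was 19382, 29607 and 71996 in endocrine progenitors, against 87334, 131581 and 56905 in progenitors, so that the populations overlapped through replicate 3 of each. Cela1, an elastase, read 8.69, 9.32 and 11.21 in endocrine progenitors, against 12.56, 13.24 and 11.05 in progenitors.

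Of 17 duct genes, 11 fell and 1 rose (median -1.80), beside 11.7% and 10.7% over all genes. The 1 that rose was the keratin gene Krt7 (1.12), given above. Cldn10, a claudin, fell by 3.37, the carbonic anhydrase Car2 by 2.85 and the water channel Aqp1 by 2.68. The bicarbonate transporter Slc4a4 (-2.31), Pkhd1 of the primary cilium (-2.25) and the chloride channel Cftr (-2.17) also fell. Muc1, a mucin of the apical surface, differed by -0.72 and was not called. The keratin gene Krt19 was not called either, at -0.75 to -0.39 with 1 array left out in turn.

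**Figure D4:**
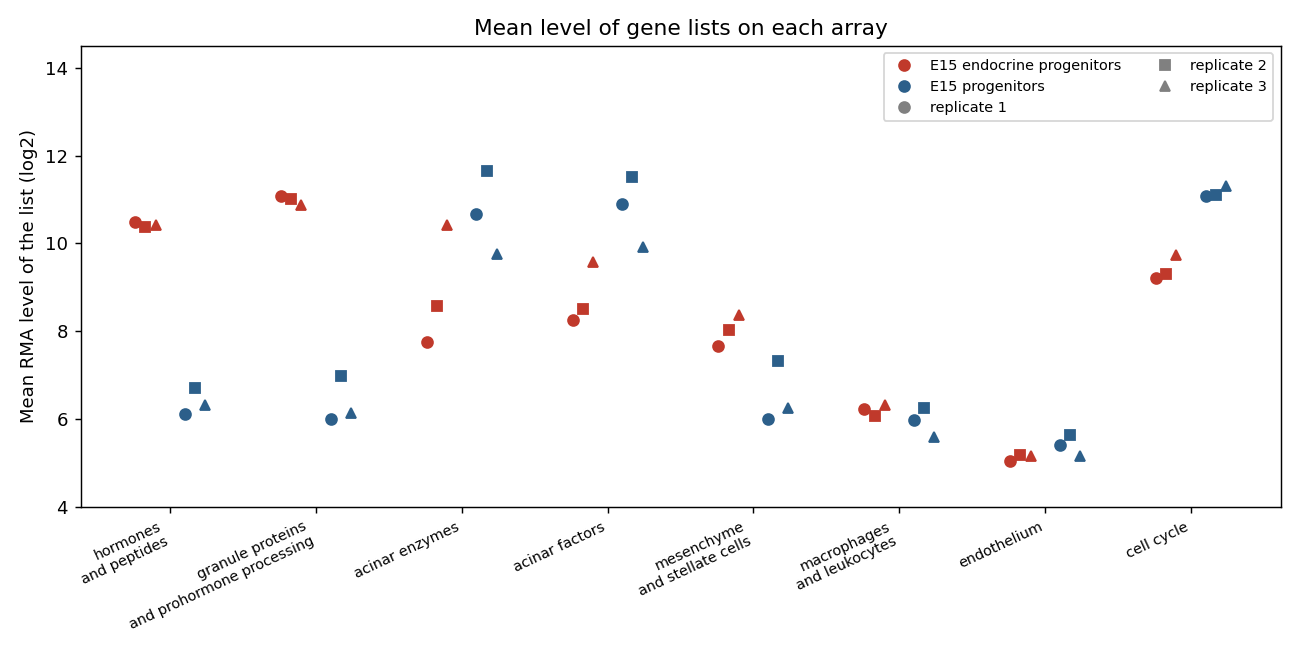
Mean level (log2) of 8 gene lists on each endocrine progenitor array (red) and progenitor array (blue); symbols mark the replicate. Hormones, granule proteins and cell cycle genes separate the populations, acinar enzymes overlap through replicate 3 of each, and progenitor replicate 2 is the highest progenitor array for mesenchymal genes.

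Markers of other cell types were read on the same arrays. Of 16 leukocyte markers, 9 lay below the floor on all 6 arrays, among them Ptprc, which encodes CD45, and their summed level was 1506 to 1864 in endocrine progenitors and 1517 to 2035 in progenitors. Laptm5 rose by 2.75 and Cd14, a coreceptor for lipopolysaccharide, fell by 2.78, at 6.51 ± 0.78 in endocrine progenitors and 9.29 ± 0.26 in progenitors (SD, n = 3 each). Of 12 endothelial markers, 10, with Pecam1 and Cdh5, lay below the floor on all 6 arrays, and none was called by limma or by the methods' test, with 1 at an unadjusted p under 0.05. Of 8 markers of red blood cells, Slc4a1 rose by 2.26 while both measured embryonic globins lay below the floor. Of 8 genes of neural crest and glia, 3 or 4 lay above the floor on each of the 6 arrays. Ret, a receptor that developing islet cells also express, rose by 2.54, a call that the methods' test did not make (adjusted p = 0.086), and Erbb3 and Sox10 fell by 1.46 and 1.42, Sox10 being at -1.15 and not called without endocrine progenitor replicate 1. Of 6 mesothelial genes, Wt1 rose by 1.42 with overlapping arrays, and was not called without endocrine progenitor replicate 2 (1.17) or progenitor replicate 1 (1.18) or 3 (1.06). The part of these cells in the results was not tested.

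Of the genes that the study names and that have a probe of their own, 31 were tested. Of these, 15 rose and 7 fell, beside 10.7% and 11.7% over all genes. The study chose its genes on these samples, so their direction is not independent evidence. Beside those given above, Ctxn2, a cortexin, read 9.07, 8.80 and 8.64 in endocrine progenitors, against 4.14, 4.07 and 3.89 in progenitors (4.80, SE 0.38), Mctp2, a membrane protein with calcium-binding domains, rose by 3.03 and Fap, a protease of activated fibroblasts, by 2.88. Cldn8 fell by 2.85. Gfi1, a zinc finger repressor, read 5.44, 5.49 and 6.99 in endocrine progenitors, against 8.05, 9.36 and 6.70 in progenitors, overlapped, and fell by 2.06 (SE 0.49), a call that the methods' test did not make. Bcl11a, Prdm16, Glis3, Snai2, Pdx1, Muc1, Spin2c (-0.50), Gdf3 (-0.39) and C1qb (1.46, adjusted p = 0.082) were not called.

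Set beside the other populations sorted at E15, with no test of those differences, the genes that rose fell into several patterns. In 804 of the 1545 the mean of E15 beta cells lay above that of endocrine progenitors, in 650 it lay between endocrine progenitors and progenitors, and in 91 at or below progenitors. The arrays of E15 beta cells also read higher for mesenchymal markers (mean level 9.48, against 7.66 to 8.38 in endocrine progenitors). For leukocyte markers they read 7.72, against 6.06 to 6.32. The part of such RNA in these counts was not tested. Ins2 averaged 12.24 ± 0.13 (SD, n = 3) in endocrine progenitors and 14.32 in beta cells, and Neurod1 12.98 ± 0.08 and 12.80. In 423 genes endocrine progenitors had the highest mean of all 13 populations of the series, and in 122 by at least 1 on the log2 scale. Nhlh1 had the widest gap, reading 10.32, 10.33 and 10.49 in endocrine progenitors, against 4.49, 5.22 and 4.68 in progenitors, with the next population, E15 beta cells, at 6.15. Neurod2 stood 4.01 above the next population, Ttll6, which encodes a tubulin-modifying enzyme, 3.60, Tfap2c, a factor of the AP-2 family, 3.54, Upk3bl 3.53, the proton channel gene Otop1 3.47 and Eya2, a transcriptional coactivator and phosphatase, 3.13. Pax4 stood 2.74 above E15 beta cells. Wnt3, a secreted ligand, read 5.95, 6.48 and 7.14 in endocrine progenitors, against 3.69, 3.68 and 3.67 in progenitors.

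**Figure D5:**
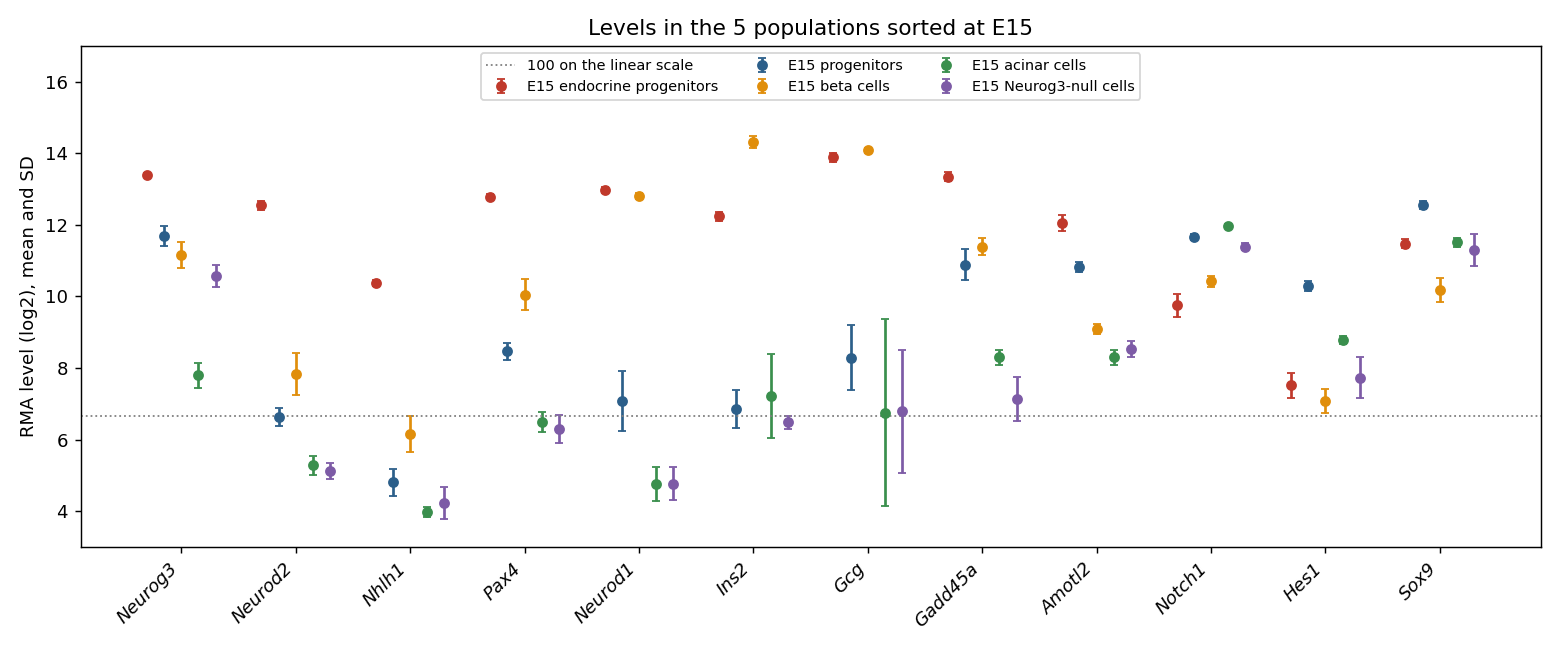
Mean RMA level (log2) with SD of 12 genes in E15 endocrine progenitors, progenitors, beta cells, acinar cells and Neurog3-null cells. Nhlh1 averages 10.38 in endocrine progenitors and 4.80 in progenitors, while Neurod1 averages 12.98 in endocrine progenitors and 12.80 in beta cells.

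In E15 cells that lack Neurog3 (n = 4), whose arrays also held leukocyte RNA (mean level of leukocyte markers 11.86, against 5.59 to 6.32 on the 6 arrays compared here), Neurod1 averaged 4.77, Pax4 6.30 and Insm1 7.42. Progenitors averaged 7.08, 8.46 and 10.40 for these 3 genes. The cells without Neurog3 were eGFP-positive and came from embryos homozygous for an eGFP knock-in at Neurog3. The progenitors were eGFP-negative and came from the transgenic line, so reporter and gate differed along with the genotype. Among the genes that fell, the mean of E15 beta cells was lower than that of endocrine progenitors in 951 of 1699 and between the populations in 703. Hes1 averaged 7.51 ± 0.36 in endocrine progenitors, 10.29 ± 0.14 in progenitors (SD, n = 3 each) and 7.07 in beta cells. Notch1 had its lowest mean of all 13 populations in endocrine progenitors, at 9.75 ± 0.32, against 11.65 ± 0.08 in progenitors, with 10.42 in E15 beta cells.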

How the data were processed

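RNA was amplified from sorted cells and hybridized to Affymetrix mouse arrays. The authors made the deposited log2 values by RMA in R 2.11.1, which corrects background, sets arrays to 1 distribution and gives 1 value per probe. Whether the 48 arrays were normalized in 1 run is not given in the sources used here. Of 45101 probes, 34945 carry exactly 1 gene, 932 several and 9160 none, and 64 are controls. Of the single-gene probes, 34741 matched the RefSeq annotation by gene ID.

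limma 3.58.1 in R 4.3.3 fitted 13 population means over 48 arrays (35 residual degrees of freedom), without the replicate number as a block. The fit used the 32043 probes above 100 on the linear scale on at least 1 array. The study reports fewer probes after its own filter at 100, so the tested sets differ. Tests were checked on simulated data. Each gene is represented by the brightest of its probes, by mean over all 48 arrays. Each population has 3 arrays, whose number limits precision. The text names the sort markers, the 15 largest differences in each direction without overlap, up to 6 called members per list with those against its direction, the genes of the study, and genes of small counts. Further genes (Rest, those with the widest gap to the other populations, and members cited as not called) were picked after their values were seen. Members and lists were chosen with earlier results of these data known. Of the list entries, 43 have no probe of their own and were not analysed here. Promoters are from RefSeq. The alternatives changed the arrays, test, filter, scaling, weights, probe or fold threshold.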

Additional observations from a re-analysis of the deposited data

How the results depend on the processing

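Of the 266 called genes among the lists and the largest differences, 224 were called under all 13 alternatives and with each of the 6 arrays left out, 42 were lost under at least 1 of these and none changed sign. All 30 of the largest differences were called throughout. With no minimum fold 5605 probes were higher and 5946 lower (2993 and 3128 genes), 16 genes of epithelial adhesion and 24 of ribosome biogenesis were lower. Leaving out 1 array gave 2738 to 3050 probes higher and 2986 to 3547 lower, and 1509 to 1555 genes higher and 1524 to 1884 lower. Acinar enzymes depended most on the setting: none was called lower in the fit of 48 arrays, 7 with the 6 arrays alone, 19 with array weights, 1 with a filter on the mean of either population, 1 with a variance trend, 2 with the mean over all probes of a gene, 1 with the replicate block, and 0 to 6 with 1 array left out (6 without endocrine progenitor replicate 3, 3 without progenitor replicate 3). The methods' test called 1 acinar factor lower and 1 mesenchymal gene higher, against 5 and 7. The cause was not tested. With the replicate number as a block, 3014 probes were higher and 3265 lower, against 2987 and 3310 on the same 6 arrays without it. The deviations of arrays with the same number correlated at 0.302, 0.052 and 0.117, and those with different numbers at -0.31 to 0.141. With 3 arrays of each population these values cannot decide whether the numbers pair the samples. Beside the acinar enzymes, 3 list counts with the block differed from the fit of 48 arrays by over 1.5 times. These were 2 chaperones lower, 3 leukocyte markers and 1 sex-linked gene higher, against 1, 1 and 0. The 6 arrays without the block also gave 3 leukocyte markers and 1 sex-linked gene. The calls of Gfi1 and Rbpjl were lost with the block. The median difference over all probes was -0.002 as deposited, -0.006 after a second quantile normalization and 0.048 after centring each array. Levels near the floor limit the size of a difference.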

Other observations

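Gene families, taken as symbols with the same leading letters and at least 10 genes tested, were read after the data were seen, as a description of 174 families with no test. The families with the largest share of members higher in endocrine progenitors were voltage-gated sodium channels (Scn, 6 of 10), synaptotagmins (Syt, 7 of 13) and calcium channel subunits (Cacna, 6 of 12, a share that 3 other families also reached), beside 10.7% of all genes. The sodium channel gene Scn3a averaged 9.15 ± 0.13 in endocrine progenitors and 4.27 ± 0.14 in progenitors (SD, n = 3 each). The calcium channel subunit Cacna2d1 averaged 12.53 ± 0.18 in endocrine progenitors and 7.22 ± 0.46 in progenitors, and Cacna1h 11.86 ± 0.10 and 8.48 ± 0.15. None of the members of these 3 families was called lower.

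The families with the largest share lower were the Mcm genes of DNA replication (6 of 10), the Adamts proteases of the matrix (7 of 13) and the septins (5 of 10), beside 11.7% of all genes. Adamts16 averaged 8.43 ± 0.59 in endocrine progenitors and 11.41 ± 0.46 in progenitors, and Adamts1 10.32 ± 0.33 and 12.98 ± 0.27. Among the septins 1 went against the others, the neuronal Septin3, at 10.43 ± 0.19 in endocrine progenitors and 6.76 ± 0.22 in progenitors.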
